A study of Mus musculus with 2 samples.

Results

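The genes described here are the enzymes and transporters that build and sulfate glycosaminoglycans, the long sugar chains of cartilage matrix and cell surfaces. The list held 42 genes by name. A gene was counted as measured when a probe set of the array carried its symbol and no other, and where several did, the one with the largest average of the 2 signals stood for the gene. This left 40 of the 18193 genes on the array, read by 75 probe sets. Xylt1 and Ndst1 were not analysed here. Of the 40, 34 had a mean signal at or above 64.3, the median over all probe sets, and 6 lay below it. Chst3 and Has3 among the 6 were at least 1.5-fold higher with Nell-1 and Chsy3 lower, at a signal where 28.1% of array genes were that much higher and 39.2% that much lower.

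The cells were ATDC5, a mouse cell line that can be driven along the cartilage lineage. In the CHX+Nell-1 group, serum-starved cells received the translation blocker cycloheximide (CHX) at 10 µg/ml for 30 min and then recombinant human Nell-1 protein, a secreted bone-forming glycoprotein, at 100 ng/ml for 30 min. The CHX+PBS group had the same starvation, CHX dose and times, with PBS in place of Nell-1. Each group had 1 array of total RNA, so there was no replicate, no test was possible, and every ratio below compares 2 RNA samples. CHX was present in both groups, and no sample without it was analysed here. The stated purpose of the study was to find genes that respond to Nell-1 without new protein being made.

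Chain synthesis on a proteoglycan starts with a short linkage of sugars on a serine of the core protein. From there the chain is extended either as heparan sulfate or as chondroitin sulfate, which becomes dermatan sulfate when part of its glucuronic acid is converted to iduronic acid. Sulfotransferases of the Golgi then add sulfate from the donor PAPS at set positions. Hyaluronan differs in that it is made at the plasma membrane, has no core protein and carries no sulfate. In cartilage the sulfated chains of aggrecan hold water, and the supply of sulfate limits how fully they are sulfated.

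Most measured genes of the list differed by less than 1.5-fold between the arrays. At or above the median signal the share past 1.5-fold was larger than among array genes of that signal. Over all 40 measured genes it was not larger, at 30% beside 32.1%. The genes past 1.5-fold were spread over several steps. Among the 34 genes at or above the median signal, 3 were at least 1.5-fold higher with Nell-1, namely the sulfate transporter Slc26a2, the heparan sulfate epimerase Glce and the linkage enzyme B3galt6. Another 6 were at least 1.5-fold lower, namely Has1, Chst12, Xylt2, Ndst2, Hs6st1 and Ust, and 25 were neither. Has1 reached the median signal only through its PBS signal, as did 308 of the 874 lower array genes. Leaving out genes with 1 signal below the median took out 1 of the 34 and 596 of the 11600. Then 5 of the list were lower, beside 566 array genes. The 9 genes past 1.5-fold, Has1 included, were 26.5% of the 34, beside 12.1% for array genes at that signal. The shares were 8.82% higher and 17.6% lower, beside 4.56% and 7.53% of the 11600 array genes at or above the median signal. Over all 40 measured genes, 5 were higher and 7 lower, or 12.5% and 17.5%, beside 13.1% and 19.0% of all 18193 genes. The median log2 ratio of the 34 was -0.14, beside -0.03 for the 11600. It changed sign to 0.02 when each array was divided by its median, which moved the median of all 18193 genes by 0.15, and it was then below the 0.12 of the 11600. Under that scaling 3 were higher, or 8.82%, beside 8.88% of the 11600, so the higher share was no longer larger. On the lower side 3 were left, or 8.82%, beside 4.82%. Averaging each gene over its probe sets, dim ones included, gave 3 higher, or 8.82%, beside 7.66%, and 10 lower, or 29.4%, beside 11.2%. Extl3, Chst2, Hs6st2 and Papss2 became lower in this way, only through probe sets below the median signal. The brightest probe sets of Hs6st2 and Papss2 were above 0, at 0.38 and 0.33.

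The scale of the noise depended on signal. As a yardstick, the robust SD of the log2 ratio over all probe sets was 0.21 in the brightest of 10 signal bins, 0.33 at signals between 282 and 653, 0.62 between 64.3 and 121, and 2.23 between 13.2 and 23.8. It holds real differences as well as noise. Ratios of single genes are set beside the robust SD of their bin where it bears on them. Of the 34 genes, 17 lay within 1 robust SD of 0, or 50%, beside 66.5% of the 11600.

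RNA added to the samples as a control also differed between the arrays. The 24 probe sets for poly-A spike-in RNAs, which are mixed in ahead of labelling, were all lower with Nell-1. Their median log2 ratio was -0.49. The 18 hybridisation spike-ins had a median of -0.18. Their part in the lower ratios of the genes above was not tested. The 3' to 5' signal ratio, a sign of RNA integrity, was 1.28 with Nell-1 and 1.32 with PBS for beta-actin, and 0.858 with Nell-1 and 0.848 with PBS for Gapdh. The cartilage label was checked on 10 chondrocyte markers, of which 7 were at or above the median signal. Of these, 2 were at least 1.5-fold higher and none lower, beside 4.56% and 7.53% of array genes at that signal. Acan, which encodes the proteoglycan aggrecan, measured 293 with Nell-1 and 176 with PBS, 1.67-fold higher, and Sox6, a partner of Sox9, 338 with Nell-1 and 208 with PBS, 1.62-fold higher. Sox9, the master chondrocyte factor, was at 2577 with Nell-1 and 3375 with PBS, and Col2a1, the main cartilage collagen, at 1206 with Nell-1 and 909 with PBS. Comp, Matn1 and Hapln1, products of mature cartilage, were below the median signal on both arrays, and so were all 5 endothelial markers. The 3 cartilage genes were each at least 1.5-fold lower, with log2 ratios of -2.16, -0.89 and -1.66. Of array genes at that signal, 39.2% were that much lower. Hapln1 averaged 1.76 over its 4 probe sets, so its direction depended on the probe set. Summed signals were 5717 with Nell-1 and 6049 with PBS for the 10 chondrocyte markers. They were 5202 with Nell-1 and 3635 with PBS for 3 osteoblast markers, the measured ones of 5 listed. Of these, Alpl, alkaline phosphatase, had a log2 ratio of 0.55 and made up most of both sums. Sp7 had 0.45, and Ibsp, below the median signal, had -0.46. The sums of 6 fibroblast markers were 93599 with Nell-1 and 105224 with PBS, of 5 haematopoietic markers 316 with Nell-1 and 349 with PBS, of 5 epithelial markers 529 with Nell-1 and 607 with PBS, and of the endothelial markers 96.0 with Nell-1 and 220 with PBS. The part of these cell types in the ratios was not tested.

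**Figure D1:**
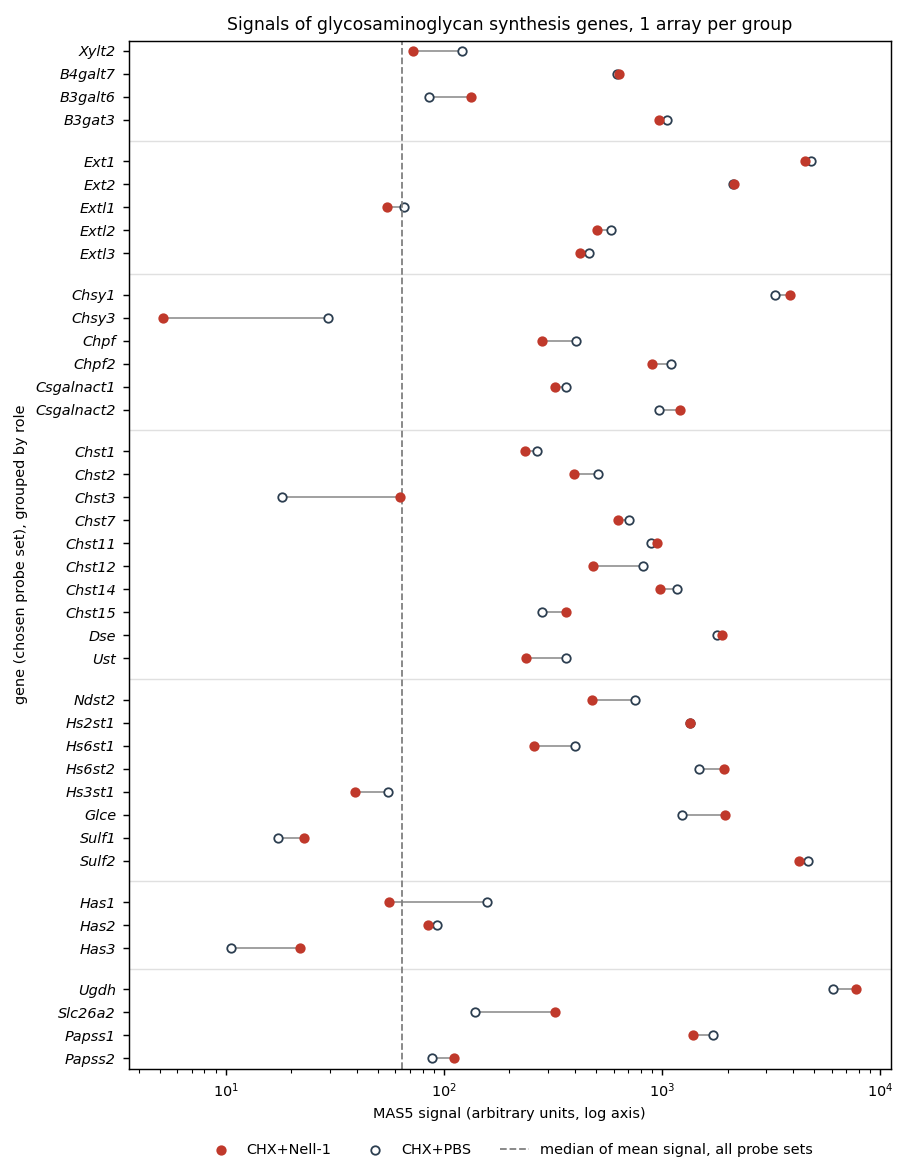
MAS5 signal (arbitrary units, log axis) of the chosen probe set of each of the 40 measured genes, with the gene on the vertical axis, grouped by role from the linkage enzymes at the top to sulfate supply at the bottom. Filled points are the CHX+Nell-1 array, open points the CHX+PBS array, and the dashed line is the median mean signal of 64.3. Most pairs of points nearly coincide. Of the wide gaps, those of Chsy3, Chst3 and Has3 lie left of the line, that of Has1 crosses it and that of Slc26a2 lies right of it.

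**Figure D2:**
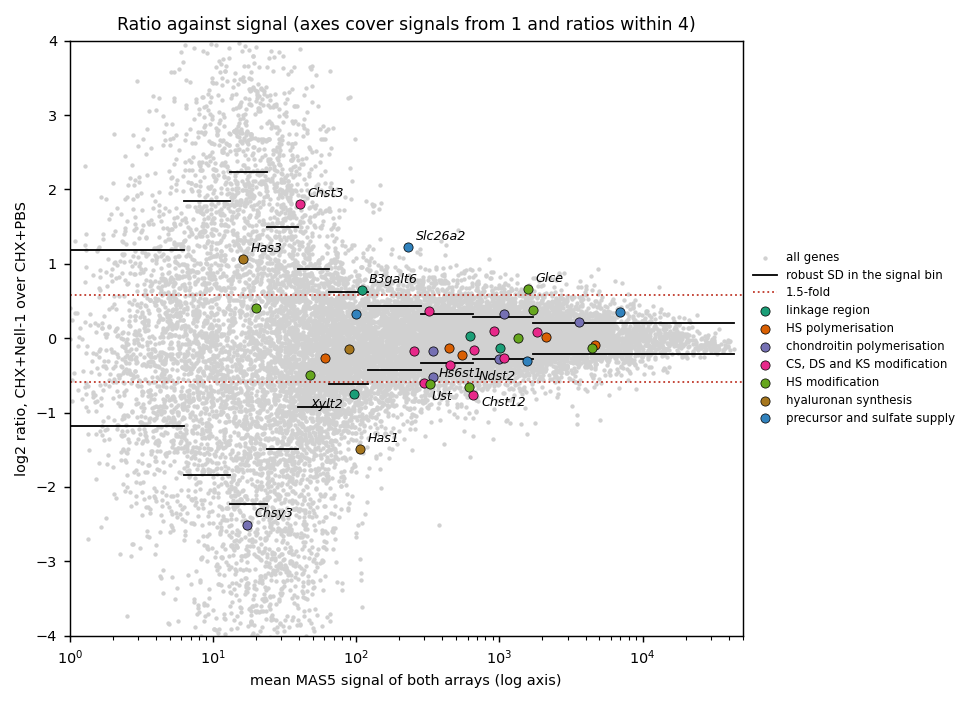
Log2 ratio of CHX+Nell-1 over CHX+PBS against the mean signal of both arrays (log axis) for all genes (grey) and the glycosaminoglycan genes (coloured by role). Black steps give the robust SD in each signal bin and dotted lines 1.5-fold. Genes past 1.5-fold are named, and the grey cloud widens to the left, where the robust SD reaches 2.23.

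Promoter sequences are shown for 4 of the 9 genes past 1.5-fold, Glce on the higher side and Ust, Chst12 and Has1 on the lower, as examples of both directions and of different steps. They are the windows from 250 bases before to 50 after the annotated start, from RefSeq on build GRCm38.p6, printed 5' to 3' on the gene's strand. The window of Glce was chr9:62122560-62122859 on the minus strand, that of Ust chr10:8518776-8519075 on the minus strand, that of Chst12 chr5:140505359-140505658 on the plus strand and that of Has1 chr17:17855139-17855438 on the minus strand. Capitals mark matches to a GC box (GGGCGG) or a cyclic AMP response element (TGACGTCA), searched on both strands.
Glce: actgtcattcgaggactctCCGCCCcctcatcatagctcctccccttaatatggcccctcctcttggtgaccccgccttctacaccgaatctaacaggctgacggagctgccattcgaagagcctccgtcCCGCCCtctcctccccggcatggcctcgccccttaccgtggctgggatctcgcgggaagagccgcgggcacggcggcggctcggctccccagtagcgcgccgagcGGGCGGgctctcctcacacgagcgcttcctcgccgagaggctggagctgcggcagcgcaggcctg
Ust: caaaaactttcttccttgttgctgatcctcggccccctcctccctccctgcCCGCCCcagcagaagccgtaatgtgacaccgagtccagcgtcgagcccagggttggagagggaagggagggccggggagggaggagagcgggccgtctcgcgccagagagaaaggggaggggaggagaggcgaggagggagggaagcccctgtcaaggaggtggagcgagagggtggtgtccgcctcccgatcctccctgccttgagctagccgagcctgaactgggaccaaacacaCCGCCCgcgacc
Chst12: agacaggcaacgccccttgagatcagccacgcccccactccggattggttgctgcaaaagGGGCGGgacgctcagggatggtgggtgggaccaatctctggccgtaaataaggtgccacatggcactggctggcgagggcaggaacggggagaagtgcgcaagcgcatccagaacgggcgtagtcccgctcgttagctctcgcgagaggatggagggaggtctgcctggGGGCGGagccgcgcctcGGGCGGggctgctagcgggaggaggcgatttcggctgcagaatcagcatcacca
Has1: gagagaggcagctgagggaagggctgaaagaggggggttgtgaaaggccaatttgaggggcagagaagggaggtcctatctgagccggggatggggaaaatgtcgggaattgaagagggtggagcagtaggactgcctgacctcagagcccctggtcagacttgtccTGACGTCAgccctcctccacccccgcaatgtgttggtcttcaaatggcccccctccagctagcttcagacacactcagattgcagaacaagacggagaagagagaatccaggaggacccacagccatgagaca

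The first 3 of these windows held GC boxes, 3 matches in Glce, 2 in Ust and 3 in Chst12. Has1 held none and instead held 1 cyclic AMP response element. Of the 40 measured genes, 32 matched a promoter in the RefSeq table, with 40 windows between them. A GC box was found in 24 of these 40 windows, or 60%, beside 35.7% of all 32851 windows of that length. The cyclic AMP response element was found in 2, those of Chpf and Has1, beside 1.79% of all windows. The AP-1 letters TGANTCA were found in 1, a window of Csgalnact2, beside 7.81%, and the EGR letters GCGTGGGCG in none, beside 0.612%. The element searches did not overlap in the printed windows, and the matches are a description of letters only.

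The linkage enzymes that start heparan and chondroitin sulfate chains showed 1 gene past 1.5-fold in each direction. Xylt2 adds the first xylose to the core protein and measured 71.9 with Nell-1 and 121 with PBS, 1.68-fold lower, with a log2 ratio of -0.75 where the robust SD was 0.62. B3galt6, which adds the second galactose of the linkage, measured 133 with Nell-1 and 85.2 with PBS, 1.56-fold higher, with a log2 ratio of 0.64 at the same robust SD. Both therefore lie close to the spread of array genes at their signal. B4galt7, which adds the first galactose, was at 634 with Nell-1 and 623 with PBS, a log2 ratio of 0.03. Its second probe set was at -0.07. B3gat3, the glucuronosyltransferase that completes the linkage, measured 968 with Nell-1 and 1059 with PBS, a log2 ratio of -0.13. Its second probe set, at 99.9 with Nell-1 and 48.7 with PBS, had 1.04, so the probe sets of this gene disagreed.

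None of the 5 enzymes that polymerise heparan sulfate reached 1.5-fold, and all 5 lay within 1 robust SD of 0. Ext1 and Ext2 form the polymerase complex. Ext1 measured 4508 with Nell-1 and 4801 with PBS, a log2 ratio of -0.09, and Ext2 measured 2137 with Nell-1 and 2114 with PBS, a log2 ratio of 0.02. Extl3, which adds the first N-acetylglucosamine of a heparan sulfate chain, was at 421 with Nell-1 and 462 with PBS, a log2 ratio of -0.13. Extl2, which transfers N-acetylhexosamine to the linkage, was at 501 with Nell-1 and 587 with PBS, a log2 ratio of -0.23, and at 0.02 on its second probe set. Extl1, a further transferase of this family, lay below the median signal on average, at 55.1 with Nell-1 and 66 with PBS.

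Among the chondroitin polymerising enzymes none at or above the median signal reached 1.5-fold, and the enzymes pointed both ways. Csgalnact1 and Csgalnact2 place the first N-acetylgalactosamine that commits a chain to chondroitin. Csgalnact2 measured 1206 with Nell-1 and 966 with PBS, a log2 ratio of 0.32 where the robust SD was 0.28. Csgalnact1 measured 324 with Nell-1 and 365 with PBS, a log2 ratio of -0.17, and its second probe set had 0.18. Of the enzymes that extend the chain, Chsy1 measured 3851 with Nell-1 and 3307 with PBS, a log2 ratio of 0.22. Its partners were on the other side of 0. Chpf, the chondroitin polymerising factor, measured 282 with Nell-1 and 403 with PBS, a log2 ratio of -0.52 where the robust SD was 0.33, which was 1.43-fold lower and the nearest of the 34 genes to 1.5-fold without reaching it. Chpf2 measured 903 with Nell-1 and 1096 with PBS, a log2 ratio of -0.28, and its second probe set had -0.07. Chsy3 had signals of 5.19 with Nell-1 and 29.5 with PBS, and its second probe set, at 9.40 with Nell-1 and 2.27 with PBS, pointed the other way, so no direction can be read for it.

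The enzymes that sulfate and epimerise chondroitin, dermatan and keratan chains held 2 of the lower genes. Chst12, a chondroitin sulfotransferase acting on galactosamine, measured 483 with Nell-1 and 822 with PBS, 1.70-fold lower, with a log2 ratio of -0.77 where the robust SD was 0.33. It has 1 probe set. Chst11, the related enzyme on which cartilage chondroitin sulfation chiefly depends in mice, measured 953 with Nell-1 and 891 with PBS, a log2 ratio of 0.10, and its second probe set had -0.17. The related enzymes thus had different ratios, and the difference could not be tested with 1 array per group. Ust, which sulfates the uronic acid of dermatan and chondroitin, measured 237 with Nell-1 and 362 with PBS, 1.52-fold lower, just past the threshold. Its second probe set pointed the same way, at 106 with Nell-1 and 196 with PBS, 1.85-fold lower. The first of these was short of 1.5-fold in all 3 rescalings of the arrays, at -0.46 with each array divided by its median and -0.58 in the other 2.

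The other enzymes of these chains at or above the median signal were closer to 0. Chst14, the dermatan sulfotransferase, measured 979 with Nell-1 and 1178 with PBS, a log2 ratio of -0.27. Dse, the epimerase that turns chondroitin into dermatan, measured 1894 with Nell-1 and 1791 with PBS, a log2 ratio of 0.08. Chst15, which adds a further sulfate to already sulfated galactosamine, measured 363 with Nell-1 and 282 with PBS, a log2 ratio of 0.37, but -0.16 on its second probe set. Chst7, a sulfotransferase of chondroitin galactosamine, was at 632 with Nell-1 and 705 with PBS, a log2 ratio of -0.16. Chst3, the related enzyme linked to a human skeletal dysplasia, had 62.9 with Nell-1 and 18.1 with PBS. Its log2 ratio of 1.8 was the farthest from 0 of these enzymes and 1.94 times the robust SD, but both signals lay below the median and it has 1 probe set. In this group the keratan-related enzymes Chst1 and Chst2 were on the lower side. Chst1, which sulfates galactose of keratan, was at 237 with Nell-1 and 268 with PBS, a log2 ratio of -0.18, and Chst2, which sulfates glucosamine, at 397 with Nell-1 and 507 with PBS, a log2 ratio of -0.35. Only the second of these exceeded its robust SD, of 0.33.

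Heparan sulfate modification held genes past 1.5-fold on both sides. Glce, the epimerase that makes iduronic acid and so gives the chain its flexibility, measured 1954 with Nell-1 and 1241 with PBS, 1.58-fold higher, and its log2 ratio of 0.66 was 2.31 times the robust SD. Its second probe set read 180 with Nell-1 and 124 with PBS, a log2 ratio of 0.54. The dimmest read 107 with Nell-1 and 79.7 with PBS, a log2 ratio of 0.42, so all 3 were higher and 1 reached 1.5-fold. On the lower side, Ndst2 removes acetyl groups from glucosamine and adds N-sulfate, and measured 477 with Nell-1 and 754 with PBS, 1.58-fold lower. Its log2 ratio was -0.66 where the robust SD was 0.33. Hs6st1, an O-sulfotransferase of glucosamine, measured 259 with Nell-1 and 398 with PBS, 1.54-fold lower, with a log2 ratio of -0.62. Each of the lower pair has 1 probe set, and both were short of 1.5-fold when each array was divided by its median, at -0.51 for Ndst2 and -0.47 for Hs6st1.

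Hs6st2, which shares the reaction of Hs6st1, was on the other side of 0, at 1930.3 with Nell-1 and 1481 with PBS, a log2 ratio of 0.38. Its second probe set, at 124 with Nell-1 and 149 with PBS, had -0.27, so its direction was not the same on both. Hs2st1, which sulfates the iduronic acid that Glce makes, had the log2 ratio nearest to 0 of the 40 genes, at 1339 with Nell-1 and 1341 with PBS. Its 3 probe sets at or above the median signal had log2 ratios of -0.0018, 0.025 and -0.44. Sulf2, an extracellular enzyme that removes sulfate from heparan chains, measured 4244 with Nell-1 and 4669 with PBS, a log2 ratio of -0.14, and -0.01 and 0.03 on its other probe sets. Sulf1 and Hs3st1 were below the median signal. Sulf1, the relative of Sulf2, had 22.9 with Nell-1 and 17.3 with PBS, and Hs3st1, which makes the antithrombin-binding form of the chain, had 39.4 with Nell-1 and 55.3 with PBS. Neither reached 1.5-fold.

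The hyaluronan synthases lay near or below the median signal. Has1 measured 56.4 with Nell-1 and 158 with PBS, 2.80-fold lower, with a log2 ratio of -1.49 where the robust SD was 0.62. It was the lowest ratio among the 34 genes, but it rests on 1 probe set and its signal with Nell-1 was below the median. Has2, the synthase that mouse limb cartilage depends on, had 84.3 with Nell-1 and 92.9 with PBS, a log2 ratio of -0.14, and 0.29 on its second probe set. Has3 lay under the median signal, at 22 with Nell-1 and 10.5 with PBS, and its log2 ratio of 1.06 was less than the robust SD of 2.23.

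The supply of precursors and sulfate held the highest ratio of the 34 genes. Slc26a2 carries sulfate into the cell, and loss of this transporter causes chondrodysplasias in humans with undersulfated cartilage. It measured 324 with Nell-1 and 138 with PBS, 2.34-fold higher, and its log2 ratio of 1.23 was 2.83 times the robust SD at its signal. The second probe set measured 214 with Nell-1 and 119 with PBS, 1.79-fold higher, and the dimmest, below the median signal, 49.9 with Nell-1 and 13.3 with PBS. Both probe sets at or above the median signal were thus past 1.5-fold in the same direction. Ugdh, which makes the UDP-glucuronic acid used for heparan sulfate, chondroitin sulfate and hyaluronan, measured 7768 with Nell-1 and 6102 with PBS, a log2 ratio of 0.35 where the robust SD was 0.21.

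The enzymes that turn sulfate into the donor PAPS lay on either side of 0. Papss1 measured 1393 with Nell-1 and 1721 with PBS, a log2 ratio of -0.31. Papss2, the form that cartilage growth depends on in mice, measured 111 with Nell-1 and 88.4 with PBS, a log2 ratio of 0.33 that lay within the robust SD. Its 3 dimmer probe sets, all below the median signal, ranged from -4.37 to 2.21 and give no direction.

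Where a gene had several probe sets, they served as a check within the same 2 RNA samples. For 14 of the genes at least 2 probe sets were at or above the median signal. In 5 of these 14 the 2 brightest lay on the same side of 0, beside 68.6% of the 5195 array genes with such pairs. The 5 were Chpf2, Ust, Glce, Sulf2 and Slc26a2. In 2 of the 14, Ust and Slc26a2, both were past 1.5-fold in the same direction, beside 2.27% of the 5195. In the other 9 the pair fell on either side of 0. The widest gaps, as the log2 ratio of the brightest minus that of the second, were -1.17 in B3gat3, 0.65 in Hs6st2 and 0.53 in Chst15. Probe sets below the median signal were of little use, since 14 of the 15 that belong to the brighter genes passed 1.5-fold, 7 in each direction, beside 66.7% of all 22518 probe sets below the median.

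**Figure D3:**
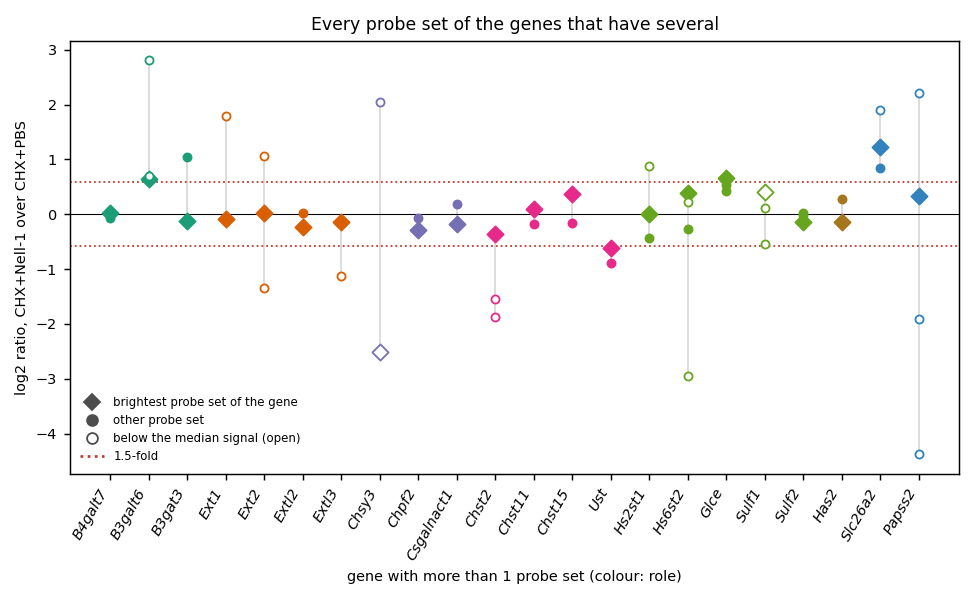
Log2 ratio of CHX+Nell-1 over CHX+PBS for every probe set of the genes with more than 1, with the gene on the horizontal axis. Diamonds are the brightest probe set of a gene, circles the others, open symbols lie below the median signal, and dotted lines mark 1.5-fold. Filled symbols of Glce and Slc26a2 all lie above 0 and those of Ust below it, while open symbols spread from -4.37 to 2.81.

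The pathway around these enzymes was read from 3 further lists, with 50 of 55 genes measured and 42 at or above the median signal. Of the 42, 1 was at least 1.5-fold higher and 2 lower, beside 4.56% and 7.53% of all genes at or above the median signal, and the median log2 ratio was 0.02. All 3 belonged to the 14 other enzymes of chain synthesis at that signal. B4galt4, a galactosyltransferase that acts in keratan synthesis, measured 135 with Nell-1 and 79.1 with PBS, 1.71-fold higher. B3gnt7, which extends keratan chains, measured 57.8 with Nell-1 and 115 with PBS, 1.99-fold lower, and reached the median signal only through the PBS array. Leaving out genes with 1 signal below the median took out 3 of the 42 and 596 of the 11600 array genes. Then 1 of the list was lower, beside 566 array genes. Dsel, the close relative of Dse, measured 196 with Nell-1 and 320 with PBS, 1.63-fold lower. Chst13, a chondroitin sulfotransferase, was at 79.6 with Nell-1 and 54.7 with PBS, short of the threshold.

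The medians of the nucleotide sugar supply and the degradation lists lay on opposite sides of 0, with genes on both sides in each list. No gene of either list reached 1.5-fold at or above the median signal. In the supply list 11 of 14 genes, or 78.6%, had ratios above 0, beside 45.8% of the 11600, and the median was 0.18. Loess and quantile scaling left 12 and 11 above 0. Dividing each array by its median put 13 above 0, and 65.0% of the 11600 with them, whose median it moved to 0.12. Ugp2, which makes the UDP-glucose that Ugdh uses, measured 3495 with Nell-1 and 2735 with PBS, a log2 ratio of 0.35, and all 5 of its probe sets were above 0. The list also held Bpnt2, which does not supply sugars but is a Golgi phosphatase that clears the by-product of sulfation. Bpnt2 measured 2802 with Nell-1 and 2097 with PBS, a log2 ratio of 0.42, with all 3 probe sets above 0. Slc35a3 and Slc35d2, transporters of nucleotide sugars into the Golgi, had log2 ratios of 0.29 and 0.34. Among 14 degradation genes 10, or 71.4%, had ratios below 0, beside 54.2% of the 11600, with a median of -0.20. Under the median scaling 8 were below 0, beside 35.0% of the 11600, and under loess and quantile scaling 10. Hexa, a lysosomal hexosaminidase, measured 5052 with Nell-1 and 6818 with PBS, a log2 ratio of -0.43. The lysosomal enzymes Galns and Naglu had log2 ratios of -0.40 each, and Sgsh, a heparan sulfamidase, -0.35 on the brightest probe set and 0.69 on the other.

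**Figure D4:**
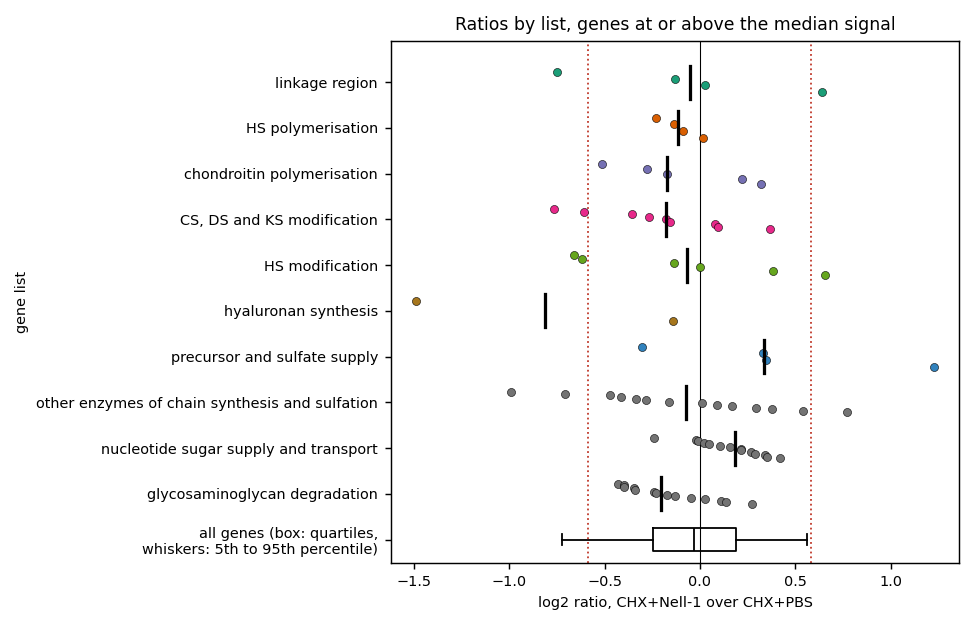
Log2 ratio of CHX+Nell-1 over CHX+PBS by list, for genes at or above the median signal. Points are genes, thick bars list medians, dotted lines 1.5-fold, and the bottom box gives the quartiles of all 11600 genes with whiskers at the 5th and 95th percentile. Precursor and sulfate supply (median 0.34, 4 genes) and nucleotide sugar supply (0.18, 14 genes) lie to the right of the box's median of -0.03. The medians of all other lists lie to its left, among them degradation (-0.20, 14 genes) and hyaluronan synthesis (-0.81, 2 genes).

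**Figure D5:**
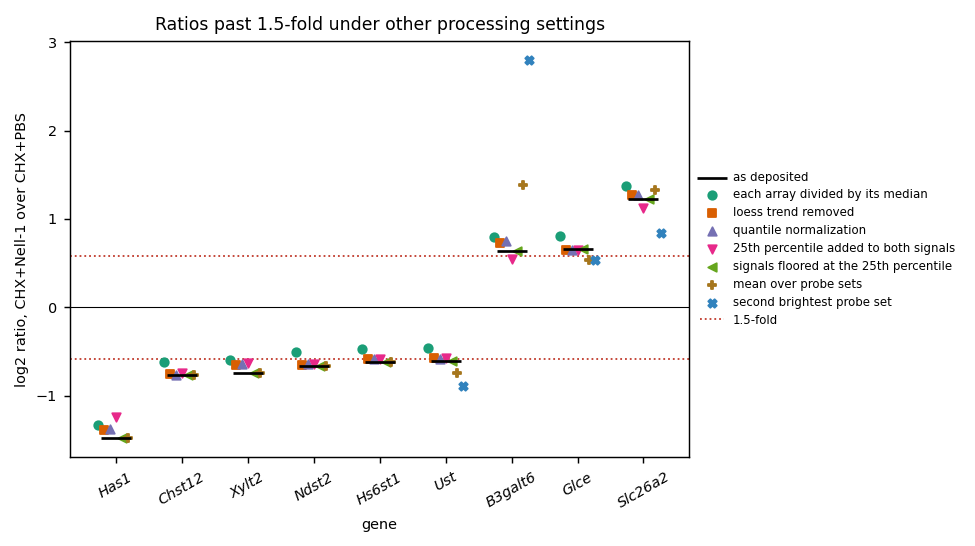
Log2 ratio of CHX+Nell-1 over CHX+PBS for the 9 genes at or above the median signal that passed 1.5-fold, as deposited (bars) and under other settings (symbols). Dotted lines mark 1.5-fold. Slc26a2, Has1, Chst12 and Xylt2 stay past the lines in every setting drawn, while Ust, Ndst2, Hs6st1, Glce and B3galt6 fall short in at least 1. Has1, Chst12 and Xylt2 have 1 probe set each, so averaging over probe sets could not move them.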

How the data were processed

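RNA from 2 samples was measured on Affymetrix mouse arrays, and the deposited intensities are MAS5 signals on a linear scale. Per the submitters' processing notes they were made with MAS5 in Affymetrix Expression Console, in versions not given in the sources used here. The 2% trimmed mean was 500.0 on both arrays. Of 45101 probe sets, 64 were controls. Of the other 45037, 34945 had 1 gene symbol, 932 several and 9160 none. Of the 34945, 34741 were found in a RefSeq table of GRCm38.p6, and its symbols were used for these. Detection calls were not used here, so low expression was judged from signal.

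Each gene was described by log2 of its CHX+Nell-1 signal divided by its CHX+PBS signal, with the 1.5-fold threshold that the submitters state (0.58 on the log2 scale). With 1 array per group no test, standard error or p-value is given, and the number of arrays limits the precision. The robust SD was taken from the median absolute deviation in 10 bins of mean signal. Members and lists were chosen with earlier results of these data known. Every listed gene is named, and from each further list up to 4 genes of the largest absolute ratio at or above the median signal. The code was tested on simulated arrays. Alternatives were 3 rescalings, constants at low signal, signal filters, a 2-fold threshold and other choices of probe set. Python 3.11.15, pandas 2.3.3 and statsmodels 0.14.6 were used.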

Additional observations from a re-analysis of the deposited data

How the results depend on the processing

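Dividing each array by its median left 4 of the 40 measured genes lower, or 10%, beside 15.8% of all genes, with a median of 0.016. At or above the median signal it left 3 higher, or 8.82% beside 8.88%, and 3 lower, or 8.82% beside 4.82%. The median there was 0.016, and that of the other pathway genes moved to 0.15. That scaling shifts every ratio alike by 0.15. Adding 17.9, the 25th percentile of mean signals, on both arrays left 3 genes higher, or 7.5% beside 8.12%. B3galt6 and Has3 then fell short of 1.5-fold, at 0.55 and 0.49. Keeping genes with mean signals at or above the median also left 3, or 8.82% of 34, beside 4.56% of all genes so kept. Keeping those at or above 100 left 3, or 9.68% of 31, beside 3.77%. A 2-fold threshold left 3 higher and 2 lower, or 7.5% and 5%, beside 8.0% and 11.8%. With the second brightest probe set, which 22 genes have, dim ones included, 7 were higher, or 31.8% beside 16.1%. Another 3 were lower, or 13.6% beside 19.9%, and the median was 0.023. Averaging over probe sets gave 3 higher at or above the median signal, or 8.82% beside 7.66%, and 10 lower, or 29.4% beside 11.2%. Extl3, Chst2, Hs6st2 and Papss2 became lower, and Ext1 higher, only through probe sets below the median signal. The alternatives for these brighter genes were chosen after seeing the data. For the other pathway genes, the filter at the median signal left 1 higher and 2 lower, the filter at 100 left 1 higher and 1 lower, or 2.78% each beside 3.77% and 5.12%, averaging over probe sets gave 5 higher, or 10% beside 14.4%, and the second brightest probe set gave 2 lower, or 8% beside 19.9%. The ratio of Chsy3 reversed to 2.05 on its second probe set. Where fewer genes entered, fewer could pass. The genes behind the other moves are named here only in part, and the cause of those moves was not tested. Of the genes at or above the median signal, Slc26a2 was past 1.5-fold in all 10 alternatives that give it a value, Has1 and Chst12 in all 9 and Xylt2 in all 7. Not all of these were checks. A signal filter cannot change a ratio, and raising signals below 17.9 to that value changed none of these ratios. Has1, Chst12 and Xylt2 have 1 probe set each, so averaging over probe sets could not move them. Xylt2, at a mean signal of 96.4, had no value under the filter at 100 or where its only probe set was left out. B3galt6 was short in 1 of 10, at 0.55 with 17.9 added, and Glce in 2 of 10, at 0.54 as a mean over probe sets and on its second probe set. Ust was short in 4 of 10. Each group has 1 array, so no replicate could be left out. No paired analysis was possible because a single pair of arrays leaves nothing to block. Low signal limits what can be said of Has3, Chst3, Chsy3, Sulf1, Hs3st1 and Extl1.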
